A study of Saccharomyces cerevisiae with 22 samples.

Results

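The genes described here are 39 genes of Saccharomyces cerevisiae whose transcripts are known to peak at a set point of the cell division cycle. They were chosen by symbol, and each is represented by 1 probe among the 6388 gene probes of the array. They fall into 15 genes of the G1/S transition (G1 and S-phase cyclins, their regulator Swi4, and replication, repair and cohesion genes), 13 genes of the mitotic Clb2 cluster, and 11 genes of the M/G1 interval. Expression was measured in 11 yeast strains, of which 9 carried alanine in place of a single histone residue. In histone H3 (hht2-pm) the substitutions were Q5A, R40A, G44A, R53A, N108A and L109A, and in histone H4 (hhf2-pm) they were K44A, V81A and Y98A. The control strains hht2-wt and hhf2-wt carried the unmutated H3 and H4 gene, and mutants were set against the control for the same histone. Every strain was grown as 2 independent cultures, a and b, in synthetic complete medium with glucose and harvested in mid-log phase, with no synchronisation named in the protocol text. Each culture was hybridised on its own array against RNA from a wild-type common reference, which gave 22 arrays. The labels give BY4742 as the strain background of both channels and no other allele or treatment.

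In budding yeast the cell cycle is driven by waves of transcription that follow one another. The factors SBF, which contains Swi4, and MBF switch on G1 cyclins and replication genes late in G1, Mcm1 with Fkh2 and Ndd1 switch on the Clb2 cluster in G2 and mitosis, and Swi5, itself a product of that cluster, acts on genes of early G1. Chromatin at these promoters is known to be remodelled in each cycle, and histones are themselves made in S phase. In an asynchronous culture a transcript level averages over all phases, so fewer cells in a phase and less RNA per cell of that phase cannot be told apart in any of the values below.

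A level is given as the log2 ratio of strain to reference after background correction and loess normalisation, and a difference as the log2 fold change of mutant over control from a limma fit over all 22 arrays, with its standard error (SE) and with n = 2 cultures on each side. A gene is called where its Benjamini-Hochberg adjusted p, taken over all 6388 probes, is under 0.05. All 39 genes were above background in both channels on all 22 arrays, with median strain signals from 118 (RFA1) to 11832 (CTS1) intensity units. Which channel held the strain is taken from the labels, and the series text gives the opposite dye order for the first hybridisation, so which way each gene moved depends on the labels being right. With the channels as labelled, URA3 had levels of 3.66 to 4.56, and CAN1 (-4.18 to -3.21), MET17 (-5.33 to -4.37) and TRP1 (-3.6 to -2.9) lay below 0, on all 22 arrays. Both dye orders were thus turned alike, but no allele of these genes is named in the labels, and the 4 genes do not settle which channel held the strain. Genes specific to alpha cells, such as MF(ALPHA)1, STE3 and SAG1, had levels below 0 on each of the 22 arrays, although BY4742 is an alpha strain and is the label of both channels. The probes for 7 a-specific genes (MFA1, MFA2, STE2, STE6, BAR1, AGA2 and ASG7) had median levels of 2.83 to 3.81 in both cultures of every strain other than V81A and Y98A. In V81A their medians were 1.82 and 2.14, and in Y98A they were 0.12 and 0.22, so the 4 arrays of V81A and Y98A stand apart from the other arrays in their cell type markers. Leaving those 4 arrays out of the fit gave 4, 10, 10 and 11 called cell cycle genes in Q5A, G44A, N108A and K44A, of which 2, 9, 10 and 11 were also called with all arrays (4, 9, 10 and 12).

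The number of these genes that changed differed widely between substitutions, and falls outnumbered rises in N108A, K44A, V81A and Y98A. In V81A, 22 of the 39 genes were lower than in hhf2-wt, or 56.4%, where 17.1% of all probes were called lower, and 4 genes were higher, or 10.3%, where 16.8% of all probes were. In all 26 of the 39 (66.7%) were called there, against 33.9% of all probes. In K44A 9 genes were lower (23.1%) against 13.6% of all probes, and 3 were higher (7.69%) against 15.9%, which made 30.8% called in all against 29.5%. Once each chromosome was centred on its own median, only CLB1, CLB2 and MCM3 were called in K44A, all lower. The K44A calls of CLN1, CLN2, CLB5, MCD1, CLB4, SIC1, PCL1, POL1 and EGT2 given below were not kept there (centred adjusted p of 0.0671 for MCD1 to 0.959 for EGT2). In N108A 9 genes were lower (23.1%) against 12% of all probes, and 1 was higher (2.56%) against 16.6%, which made 25.6% called in all against 28.6%. In Y98A 7 genes were lower (17.9%) against 16.7% of all probes, and 2 were higher (5.13%) against 13.9%, together 23.1% against 30.6%, and the share that was lower lay near that of all probes. The 9 called genes of G44A made up 23.1% against 46.3% of all probes, with 5 higher (12.8% against 23.9%) and 4 lower (10.3% against 22.4%). The 4 called genes of Q5A made up 10.3% against 18.9% of all probes, with 2 higher and 2 lower (5.13% each, against 7.7% and 11.2%). Without any one of the 4 arrays compared, the called genes numbered 19 to 22 in V81A, 6 to 9 in Y98A, 5 to 8 in K44A, 3 to 4 in N108A, 5 to 11 in G44A and 0 to 1 in Q5A. Without the culture letter as a replicate block they numbered 20, 6, 5, 3, 6 and 0 in the same order. The share of all probes called is not given for the centred fit or for these refits. A smaller count there can therefore not be read as particular to the cell cycle genes.

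None of the 39 cell cycle genes was called by limma in R40A, R53A or L109A, or between the controls hht2-wt and hhf2-wt. Of all probes, 14.7% were called in R40A (9.8% higher and 4.95% lower), 0.673% in R53A, 0.0626% in L109A and 0% between the controls. At an unadjusted limma p under 0.05 there were 3 of the 39 genes in R40A, 4 in R53A, 0 in L109A and 0 between the controls. Of all 6388 probes, 1819, 581, 270 and 70 were under it in the same order. The fold changes of the 39 genes ran from -0.15 to 0.16 in R40A, from -0.14 to 0.16 in R53A and from -0.07 to 0.20 in L109A. Their 95% intervals reached at most from -0.31 to 0.47 in R40A, from -0.39 to 0.36 in R53A and from -0.32 to 0.48 in L109A. The sample titles carry a number, 1 or 2, that the labels do not explain, with 1 in R53A, L109A, Y98A and both controls. The number is 2 in Q5A, R40A, G44A, N108A, K44A and V81A. In those mutants substitution and number cannot be told apart against the control, and both also differ together among the H3 mutants.

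**Figure D1:**
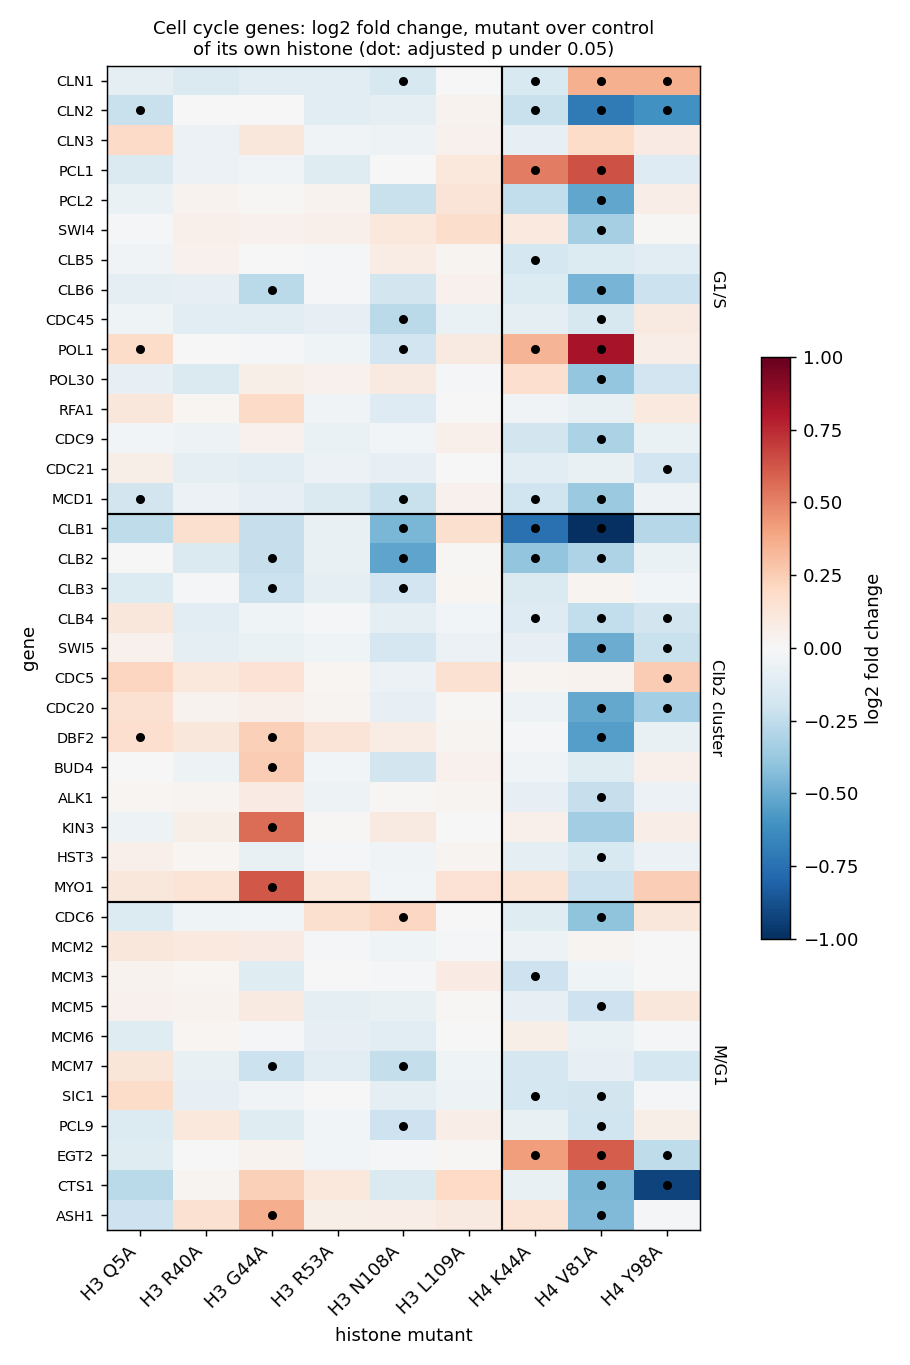
Log2 fold change of the 39 cell cycle genes (rows, in the G1/S, Clb2-cluster and M/G1 groups) in each of the 9 mutants (columns) against the control of the same histone, with a dot where the adjusted p is under 0.05. Blue dominates the V81A column, with CLB1 at -0.998 the lowest value, and PCL1, POL1 and EGT2 are red in K44A and V81A.

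**Figure D2:**
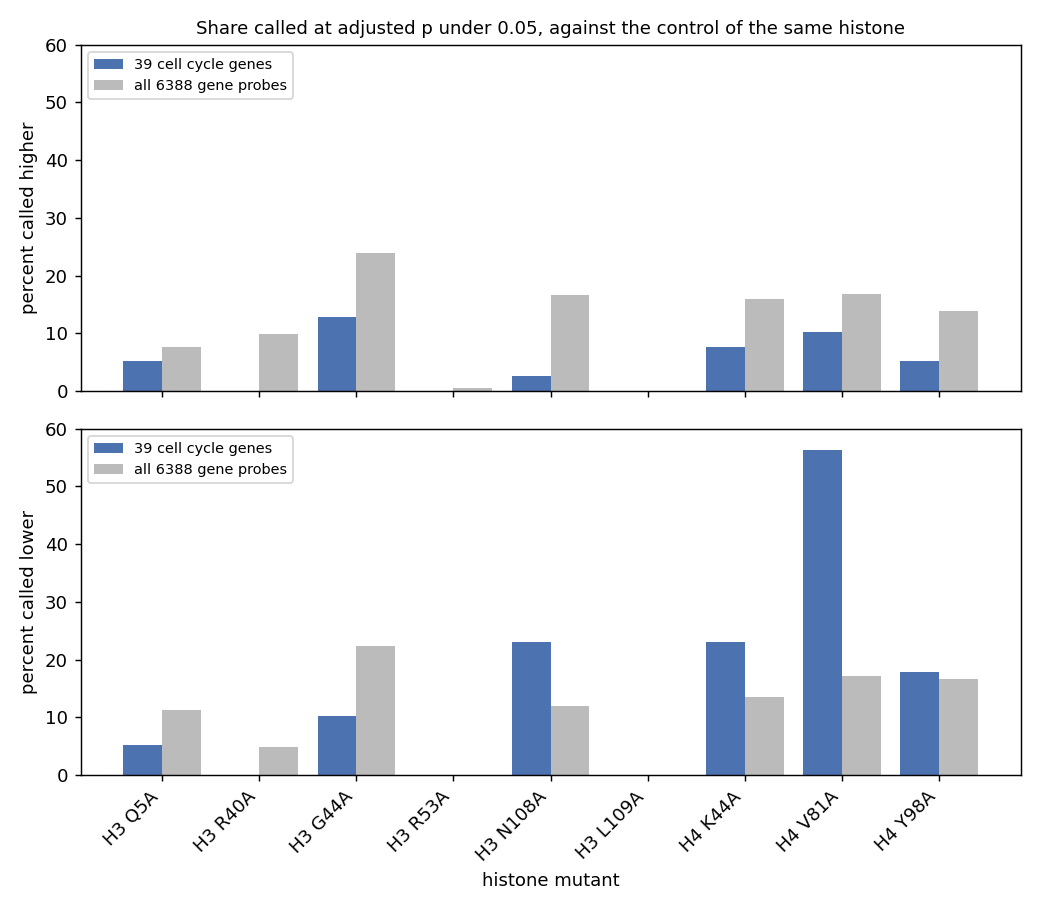
Percent of the 39 cell cycle genes (blue bars) and of all 6388 gene probes (grey bars) called higher (top) or lower (bottom) in each mutant at an adjusted p under 0.05. The V81A bar for lower genes reaches 56.4% against 17.1% of all probes.

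By phase, the median fold change of the 15 G1/S genes was -0.16 in V81A, with 3 higher and 8 lower (-0.33 without the genes of chromosomes I, VIII and XIV), -0.11 in K44A, with 2 higher and 4 lower, and -0.10 in N108A, with 0 higher and 4 lower. The 13 Clb2-cluster genes had a median of -0.24 in V81A, where 8 were lower and 0 higher, and of -0.09 in N108A and -0.08 in K44A, where 3 were lower and 0 higher in each. In G44A the same 13 genes had a median of 0.05, with 4 higher and 2 lower, where the shares of all probes given above (23.9% higher and 22.4% lower) were larger than in any other mutant. The 11 M/G1 genes had a median of -0.18 in V81A, with 6 lower and 1 higher. The median over all probes lay between -0.02 and 0.00 in every comparison, so V81A was the substitution in which the median of each phase group lay farthest from it. Of the 39 genes 5 were called in 4 mutants, namely CLN1, CLN2, POL1, MCD1 and CLB2, and 4 genes, CLN3, RFA1, MCM2 and MCM6, were called in none. The 6 H3 comparisons share the arrays of hht2-wt and the 3 H4 comparisons share those of hhf2-wt, so values set side by side below are not independent.

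CLN1 and CLN2 encode the pair of G1 cyclins that drive passage through Start, and in V81A and Y98A they moved in opposite directions. The level of CLN1 was -0.17 and -0.17 in the hhf2-wt cultures, 0.18 and 0.19 in V81A, and 0.14 and 0.23 in Y98A. All 4 of these mutant cultures lay above 0 while the cultures of every other strain lay below it. CLN1 rose by 0.36 (SE 0.052, adjusted p = 8e-05) in V81A and by 0.35 (SE 0.052, adjusted p = 1.53e-04) in Y98A. In K44A its level was -0.25 and -0.40, below both control cultures (-0.15, SE 0.052, adjusted p = 0.0373), and without K44A culture b the difference was -0.09 (adjusted p = 0.339). In N108A it was -0.32 and -0.38 against -0.22 and -0.16 in hht2-wt (-0.16, SE 0.052, adjusted p = 0.0368), and without N108A culture b it was -0.14 (adjusted p = 0.163). These small falls in K44A and N108A kept their call in only 1 of the 4 fits that leave out an array.

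CLN2 stood at -0.32 and -0.07 in hhf2-wt, at -1.05 and -0.74 in V81A and at -0.87 and -0.72 in Y98A. Culture a was lower than culture b in all 11 strains, and both mutants lay clear of the controls. CLN2 fell by 0.71 (SE 0.063, adjusted p = 5.95e-07) in V81A and by 0.60 (SE 0.063, adjusted p = 7.11e-06) in Y98A. In K44A the cultures, at -0.59 and -0.24, overlapped with those of hhf2-wt, and the call (-0.23, SE 0.063, adjusted p = 0.0153) rests on the comparison within each culture letter. Without K44A culture a it was -0.18 (adjusted p = 0.122), and without hhf2-wt culture a -0.21 (adjusted p = 0.0877). In Q5A the cultures, at -0.60 and -0.36, overlapped with -0.38 and -0.14 in hht2-wt (-0.22, SE 0.063, adjusted p = 0.0242), and leaving out any one of the 4 arrays gave -0.25 to -0.20 with adjusted p up to 0.144.

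**Figure D3:**
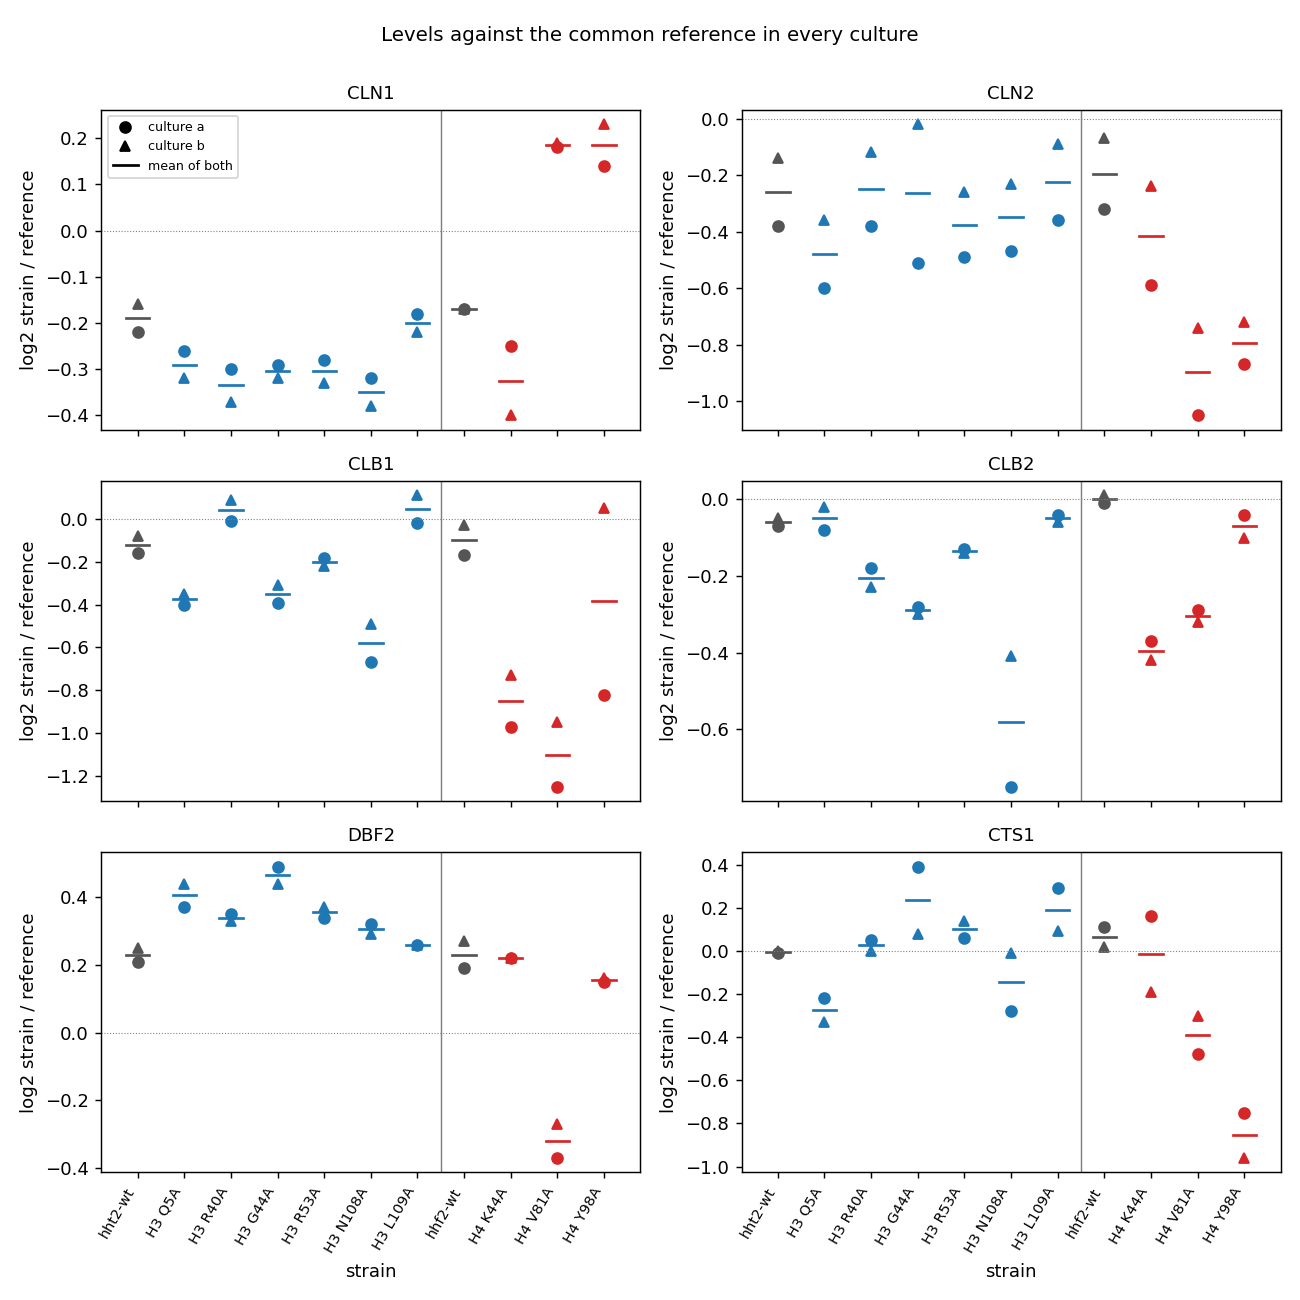
Levels of 6 genes as log2 of strain over reference (vertical axes) in culture a (circles) and culture b (triangles) of each strain, with a short line at the mean, H3 strains on the left of the grey line (blue) and H4 strains on the right (red), controls in grey. CLN1 is above 0 in V81A and Y98A only, CLN2 and CTS1 have their lowest means in those strains, and CLB1 in Y98A differs between cultures (-0.82 and 0.05).

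Among the other G1 genes, PCL1 and PCL2 encode cyclins that partner the kinase Pho85. PCL2 stood at -0.45 and -0.44 in V81A against 0.00 and 0.15 in hhf2-wt, with no overlap, a fall of 0.52 (SE 0.12, adjusted p = 0.00369). V81A was the only mutant in which it was called, and without hhf2-wt culture b the value was -0.41 (adjusted p = 0.0527). PCL1 moved the other way and lies on chromosome XIV, as described below. SWI4, the DNA-binding subunit of SBF, fell by 0.33 (SE 0.091, adjusted p = 0.0111) in V81A, a call lost without either V81A culture (adjusted p 0.0526 and 0.0644) and without hhf2-wt culture a (adjusted p = 0.079). CLN3, the cyclin upstream of SBF, was called in no mutant and had a value of 0.18 in V81A (adjusted p = 0.113).

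The S-phase cyclin genes CLB5 and CLB6 each lie next to a mitotic cyclin gene, CLB5 beside CLB2 on chromosome XVI and CLB6 beside CLB1 on chromosome VII. CLB6 stood at -0.60 and -0.48 in V81A against -0.18 and 0.03 in hhf2-wt, and fell by 0.47 (SE 0.088, adjusted p = 7.48e-04). In G44A it stood at -0.33 and -0.43 against -0.02 and -0.20 in hht2-wt (-0.27, SE 0.088, adjusted p = 0.0207). Neither pair of groups overlapped, but the G44A call was lost without G44A culture b (-0.19, adjusted p = 0.159) and without hht2-wt culture a (-0.15, adjusted p = 0.25). CLB5 was called in K44A alone, with -0.23 and -0.14 against -0.09 and 0.08 in hhf2-wt (-0.18, SE 0.059, adjusted p = 0.033), and leaving out any one of the 4 arrays gave adjusted p up to 0.182.

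MCD1, which encodes the cleavable subunit of cohesin, was lower in 4 mutants. Its level was 0.24 and 0.42 in hht2-wt and 0.30 and 0.43 in hhf2-wt. In V81A it was -0.11 and 0.09, below both hhf2-wt cultures, a fall of 0.37 (SE 0.06, adjusted p = 1.86e-04). The smaller falls were 0.23 in N108A (0.07 and 0.14 in the cultures, adjusted p = 0.0118), 0.20 in K44A (0.13 and 0.21, adjusted p = 0.0227) and 0.19 in Q5A (0.08 and 0.20, adjusted p = 0.0421). No culture of these 4 mutants reached a level of its control, yet the K44A and Q5A calls were lost without any one of the 4 arrays compared (adjusted p up to 0.144 and 0.198). The N108A call was lost without N108A culture b (adjusted p = 0.0809) or hht2-wt culture b (adjusted p = 0.0777).

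Of the replication genes, POL30, which encodes the sliding clamp PCNA, stood at -0.24 and -0.15 in V81A against 0.22 and 0.15 in hhf2-wt, a fall of 0.38 (SE 0.07, adjusted p = 6.28e-04). In K44A it lay at 0.33 and 0.38, above both controls, and was not called. CDC45, whose product is part of the replicative helicase, stood at -0.14 and -0.08 in N108A against 0.17 and 0.15 in hht2-wt, a fall of 0.27 (SE 0.056, adjusted p = 0.00289) that was called under every alternative. CDC9, the DNA ligase gene, fell by 0.32 (SE 0.073, adjusted p = 0.00354) in V81A, and without V81A culture a the value was -0.26 (adjusted p = 0.0554). CDC21, which encodes thymidylate synthase, was lower only in Y98A (-0.19, SE 0.063, adjusted p = 0.0328), a call lost without Y98A culture a (adjusted p = 0.21) or hhf2-wt culture b (adjusted p = 0.232). Hybridisation between probes of related genes, such as CLN1 and CLN2 or CLB1 and CLB2, was not tested.

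The mitotic cyclins Clb1 to Clb4 drive entry into mitosis, and Clb2 promotes transcription of its own cluster. Of the 4 cyclin genes 3 were lower and 0 higher in each of N108A, K44A and V81A, 2 were lower in G44A and 1 in Y98A. The median fold change of the 4 genes was -0.32 in N108A, -0.27 in K44A, -0.27 in V81A and -0.22 in G44A. CLB1 showed the largest fall among the 39 genes. Its level was -0.17 and -0.03 in hhf2-wt, -0.97 and -0.73 in K44A and -1.25 and -0.95 in V81A, with no overlap. The differences were -0.75 (SE 0.15, adjusted p = 0.00145) in K44A and -0.998 (SE 0.15, adjusted p = 8.44e-05) in V81A. In N108A CLB1 stood at -0.67 and -0.49 against -0.16 and -0.08 in hht2-wt (-0.46, SE 0.15, adjusted p = 0.0316), and without any one of the 4 arrays the adjusted p was 0.0649 to 0.175. In Y98A the cultures disagreed, with -0.82 in a and 0.05 in b, and CLB1 was not called (-0.29, SE 0.15, adjusted p = 0.162).

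CLB2 stood at -0.07 and -0.05 in hht2-wt and at -0.01 and 0.01 in hhf2-wt. In N108A it was -0.75 and -0.41, a fall of 0.52 (SE 0.076, adjusted p = 2.02e-04) that was called without each array in turn, with values of -0.70 to -0.35. In K44A it was -0.37 and -0.42, a fall of 0.40 (SE 0.076, adjusted p = 0.00127), and in V81A -0.29 and -0.32, a fall of 0.30 (SE 0.076, adjusted p = 0.00593). In G44A it was -0.28 and -0.30 (-0.23, SE 0.076, adjusted p = 0.0206). None of these groups overlapped with its control, but the V81A call was lost without V81A culture b (-0.28, adjusted p = 0.0547) and the G44A call without any one of the 4 arrays (adjusted p 0.0547 to 0.086). In Y98A, at -0.04 and -0.10, CLB2 was not called (-0.07, SE 0.076, adjusted p = 0.542).

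CLB3 and CLB4 changed less. CLB4 fell by 0.24 in V81A (-0.40 and -0.31 against -0.16 and -0.06 in hhf2-wt, SE 0.047, adjusted p = 8.37e-04), by 0.18 in Y98A (-0.35 and -0.23, adjusted p = 0.00933) and by 0.13 in K44A (-0.24 and -0.24, adjusted p = 0.048). No culture of the 3 mutants overlapped with hhf2-wt, although the K44A call was lost without any one of the 4 arrays, and the Y98A call without Y98A culture a (adjusted p = 0.0953) or hhf2-wt culture b (adjusted p = 0.0731). CLB3 was -0.33 and -0.16 in G44A and -0.37 and -0.07 in N108A against -0.16 and 0.11 in hht2-wt, so that the groups overlapped. It fell by 0.22 (SE 0.058, adjusted p = 0.00683) in G44A, a call lost without G44A culture b (adjusted p = 0.0636), and by 0.19 (SE 0.058, adjusted p = 0.0228) in N108A, a call lost without any one array.

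Among the 9 mitotic regulators and structural genes, 5 were lower and 0 higher in V81A, and 4 were higher and 0 lower in G44A, where 23.9% of all probes were higher. Of the 4 risers in G44A, KIN3 and MYO1 lie on chromosomes I and VIII, which were shifted in that mutant, as described below. DBF2, a kinase of the mitotic exit network, moved in both directions. It stood at -0.37 and -0.27 in V81A against 0.19 and 0.27 in hhf2-wt, and fell by 0.55 (SE 0.045, adjusted p = 2.63e-07). Both cultures of V81A were below 0, whereas those of the other 10 strains were all at 0.15 or above. In G44A DBF2 stood at 0.49 and 0.44 against 0.21 and 0.25 in hht2-wt, a rise of 0.23 (SE 0.045, adjusted p = 7.85e-04). In Q5A it stood at 0.37 and 0.44 (0.17, SE 0.045, adjusted p = 0.0169), a call lost without any one of the 4 arrays (adjusted p 0.052 to 0.128).

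CDC20, which encodes an activator of the anaphase-promoting complex, was lower in V81A and Y98A. It stood at -0.48 and -0.43 in V81A and at -0.25 and -0.32 in Y98A against 0.09 and 0.02 in hhf2-wt. The groups did not overlap, and the falls were 0.51 (SE 0.061, adjusted p = 1.22e-05) and 0.34 (SE 0.061, adjusted p = 7.76e-04). SWI5, the transcription factor that acts on M/G1 genes, stood at -0.57 and -0.49 in V81A and at -0.22 and -0.28 in Y98A against -0.02 and -0.04 in hhf2-wt. It fell by 0.50 (SE 0.076, adjusted p = 1.22e-04) in V81A and by 0.22 (SE 0.076, adjusted p = 0.041) in Y98A, where leaving out any one array gave adjusted p up to 0.162.

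CDC5, the polo kinase gene, was called higher in Y98A (0.05 and 0.20 against -0.06 and -0.19 in hhf2-wt, 0.25, SE 0.091, adjusted p = 0.0486), and the call was lost without either Y98A culture and without hhf2-wt culture b (0.12, adjusted p = 0.423). ALK1, a haspin-related kinase gene, fell by 0.23 (SE 0.048, adjusted p = 0.00153) in V81A, and HST3, which encodes a histone deacetylase of the sirtuin family, by 0.15 (adjusted p = 0.0455). The HST3 call was lost without V81A culture a (-0.10, adjusted p = 0.338) and without either hhf2-wt culture.

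In G44A the risers were MYO1, KIN3, BUD4 and DBF2. MYO1, the myosin of the contractile ring, stood at 0.81 and 0.63 against 0.27 and -0.07 in hht2-wt, a rise of 0.62 (SE 0.092, adjusted p = 9.71e-05). KIN3, a protein kinase gene of the NIMA family, stood at 1.12 in culture a and 0.32 in culture b against 0.16 and 0.16, a rise of 0.56 (SE 0.15, adjusted p = 0.00816). Both G44A cultures were above both controls for either gene, and G44A was the only mutant in which either was called. The KIN3 difference rested mostly on culture a, without which it was 0.18 (adjusted p = 0.129), and it was also not called without hht2-wt culture a (0.49, adjusted p = 0.0611). BUD4, a landmark for axial budding, rose by 0.25 (0.25 and 0.15 against 0.00 and -0.10, SE 0.07, adjusted p = 0.00897), a call lost without G44A culture a (0.22, adjusted p = 0.0611) or hht2-wt culture b (adjusted p = 0.0652).

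The M/G1 genes comprise origin licensing factors and genes of early G1 and cell separation. Of the 6 licensing genes (CDC6 and the helicase subunits MCM2, MCM3, MCM5, MCM6 and MCM7), 2 were lower in V81A and 1 in each of G44A, N108A and K44A, and of all probes 17.1%, 22.4%, 12% and 13.6% were lower in the same order, so a count of 1 in 6 lies near the background. CDC6, which loads the helicase at origins, stood at -0.28 and -0.30 in V81A against 0.17 and 0.06 in hhf2-wt, a fall of 0.40 (SE 0.062, adjusted p = 1.43e-04). In N108A it stood at 0.37 and 0.23 against 0.12 and 0.06 in hht2-wt (0.21, SE 0.062, adjusted p = 0.0216), the only cell cycle gene called higher there, and the call was lost without either N108A culture (adjusted p 0.101 and 0.0659) or without hht2-wt culture a (adjusted p = 0.139).

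MCM7 was -0.35 and -0.25 in N108A and -0.27 and -0.29 in G44A against -0.04 and -0.09 in hht2-wt, with no overlap. It fell by 0.24 (SE 0.077, adjusted p = 0.0336) in N108A, where only 1 of the 4 leave-outs kept the call (adjusted p up to 0.255), and by 0.21 (SE 0.077, adjusted p = 0.0349) in G44A, where none did (adjusted p up to 0.128). MCM3 was lower only in K44A (-0.21, SE 0.061, adjusted p = 0.0179), a call lost without K44A culture b (-0.14, adjusted p = 0.198) and without hhf2-wt culture a (adjusted p = 0.12). MCM5 was lower only in V81A (-0.20, SE 0.065, adjusted p = 0.0261), a call lost without either V81A culture (adjusted p 0.111 and 0.0956) and without hhf2-wt culture b (-0.16, adjusted p = 0.166). Among MCM2, MCM3, MCM5, MCM6 and MCM7 no called fall therefore went beyond 0.24, and MCM2 and MCM6 were called nowhere. MCM4, a helicase subunit gene outside this group, is among the further licensing genes counted below. Its fold change was -0.34 in Y98A (adjusted p = 4.97e-05), -0.205 in K44A (adjusted p = 0.00268) and -0.119 in G44A (adjusted p = 0.0372). MCM4 was called in no other mutant.

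CTS1, the chitinase that separates daughter from mother, showed the largest fall in Y98A. Its level was 0.11 and 0.02 in hhf2-wt, -0.75 and -0.96 in Y98A and -0.48 and -0.30 in V81A, with no overlap. It fell by 0.92 (SE 0.12, adjusted p = 5.69e-05) in Y98A and by 0.45 (SE 0.12, adjusted p = 0.0097) in V81A. The V81A call was lost without V81A culture a (-0.31, adjusted p = 0.145) and without hhf2-wt culture a (-0.45, adjusted p = 0.0503). ASH1, the repressor of HO that acts in daughter cells, stood at -0.56 and -0.66 in V81A against -0.16 and -0.18 in hhf2-wt, a fall of 0.44 (SE 0.094, adjusted p = 0.00211). In G44A ASH1 stood at 0.40 and -0.04 against -0.01 and -0.34 in hht2-wt, and the groups overlapped. The rise of 0.36 (SE 0.094, adjusted p = 0.00635) was lost without G44A culture a (0.23, adjusted p = 0.102) or hht2-wt culture b (adjusted p = 0.0742).

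SIC1, the inhibitor of S-phase cyclin kinase, was lower by 0.18 in both K44A (adjusted p = 0.0422) and V81A (adjusted p = 0.0318), and PCL9, a Pho85 cyclin gene, by 0.21 in N108A (adjusted p = 0.0253) and 0.20 in V81A (adjusted p = 0.0257). Each of these 4 calls was kept in only 1 of the 4 fits that leave out an array. In V81A, leaving out culture a gave -0.10 for SIC1 (adjusted p = 0.34) and -0.11 for PCL9 (adjusted p = 0.331). EGT2, a cell-wall gene of early G1, stood at -0.46 and -0.56 in Y98A against -0.14 and -0.38 in hhf2-wt (-0.25, SE 0.081, adjusted p = 0.0298), a call lost without Y98A culture b (-0.20, adjusted p = 0.178) or hhf2-wt culture a (-0.13, adjusted p = 0.343). It was higher in K44A and V81A.

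The rises in K44A and V81A followed chromosome XIV, on which 3 of the 39 genes lie: PCL1, POL1 (the catalytic subunit of DNA polymerase alpha) and EGT2. These were the 3 genes higher in K44A, and 3 of the 4 higher in V81A, where CLN1 was the other. PCL1 stood at 0.44 and 0.42 in K44A and at 0.50 and 0.61 in V81A against -0.12 and -0.05 in hhf2-wt. POL1 stood at 0.31 and 0.28 in K44A and at 0.78 and 0.78 in V81A against -0.09 and -0.01. EGT2 stood at 0.19 and 0.12 in K44A and at 0.28 and 0.41 in V81A against -0.14 and -0.38. In all 3 genes both cultures of both mutants were above both cultures of hhf2-wt.

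The rises in V81A were 0.83 (SE 0.057, adjusted p = 5.52e-08) for POL1, 0.64 (SE 0.073, adjusted p = 7.05e-06) for PCL1 and 0.61 (SE 0.081, adjusted p = 3.42e-05) for EGT2, and those in K44A were 0.34 (SE 0.057, adjusted p = 4.2e-04), 0.51 (SE 0.073, adjusted p = 1.14e-04) and 0.41 (SE 0.081, adjusted p = 0.00139). The 358 placed genes of chromosome XIV had a median fold change of 0.72 in V81A (0.72 and 0.71 in cultures a and b) and of 0.39 in K44A (0.41 and 0.37). After each chromosome was centred on its own median, POL1 stood at 0.10 (adjusted p = 0.194), PCL1 at -0.09 (adjusted p = 0.368) and EGT2 at -0.12 (adjusted p = 0.275) in V81A. In K44A the centred values were -0.06 (adjusted p = 0.424), 0.11 (adjusted p = 0.291) and 0.01 (adjusted p = 0.959). None of the 3 genes was therefore called apart from its chromosome. POL1 was also called higher in Q5A (0.18 and 0.05 against -0.07 and -0.08 in hht2-wt, 0.19, adjusted p = 0.035) and lower in N108A (-0.26 and -0.28, -0.19, adjusted p = 0.0205). The Q5A call was lost without Q5A culture a (0.12, adjusted p = 0.344) and without either hht2-wt culture, and the N108A call without any one array (adjusted p up to 0.1).

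In G44A 2 other chromosomes were shifted, each mainly in 1 culture. The 83 genes of chromosome I, which holds KIN3, RFA1 and CLN3, had a median difference from hht2-wt of 0.42 in culture a and -0.01 in culture b. In culture a KIN3 was higher than in hht2-wt by 0.96, RFA1 by 0.38 and CLN3 by 0.32, and in culture b the differences were 0.16, 0.00 and -0.09. The 252 genes of chromosome VIII, which holds MYO1, had medians of 0.06 and 0.35, and MYO1 differed by 0.54 and 0.71. Centred by chromosome, KIN3 stood at 0.38 (adjusted p = 0.00631) and MYO1 at 0.43 (adjusted p = 0.00246). The 32 cell cycle genes on other chromosomes held 3 higher and 4 lower in G44A, 0 higher and 9 lower in K44A, and 1 higher and 22 lower in V81A. Refitted without the probes of chromosomes I, VIII and XIV, 7 of these 32 were called in G44A, 8 in K44A and 23 in V81A. The shares of all probes given above include the shifted chromosomes. No share for the probes elsewhere is given, so the counts for the 32 genes have no background beside them.

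**Figure D4:**
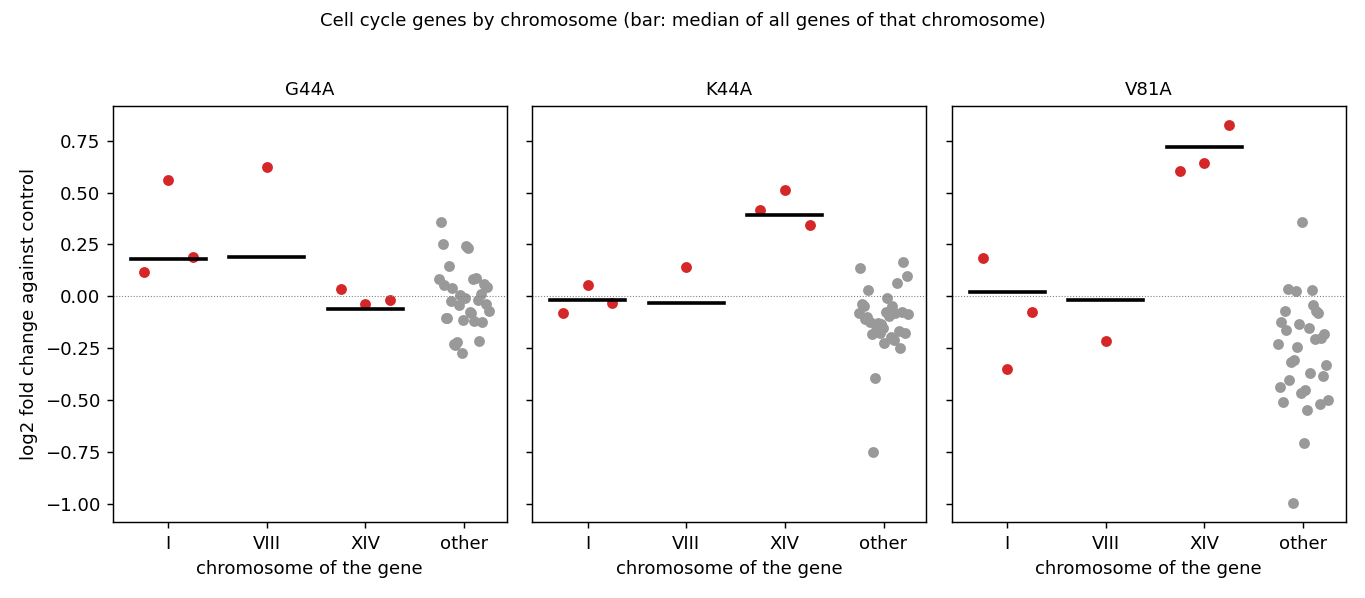
Log2 fold change against control (vertical axis) of each cell cycle gene, set out by its chromosome, in G44A, K44A and V81A, with red points for chromosomes I, VIII and XIV, grey points for the 32 genes elsewhere, and a black bar at the median of all genes of the chromosome. The 3 chromosome XIV genes lie by the bar in K44A and V81A, where the bar is at 0.39 and 0.72.

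Mating-type markers also differed from hhf2-wt in V81A and Y98A, where 17.1% and 16.7% of all probes were called lower. Of 10 genes known to be repressed in a/alpha cells (a list drawn up after these values were seen: STE4, STE5, STE18, GPA1, FUS3, FAR1, HO, RME1, NEJ1 and AXL1), 10 were lower and 0 higher than hhf2-wt in both mutants, with medians of -1.14 in V81A and -2.35 in Y98A. Their median levels were -0.12 and -0.14 in the hhf2-wt cultures, -1.44 and -1.06 in V81A, and -2.43 and -2.31 in Y98A, and in K44A -0.08 and -0.06. Of the 7 a-specific genes 6 were lower in V81A (median -1.11) and 7 in Y98A (median -3.49), and 0 were called in K44A. Of 10 pheromone-induced genes, which again include FUS3, 7 were lower in V81A and 4 in Y98A. FAR1, which inhibits G1 cyclin kinase in response to pheromone, fell by 1.74 (adjusted p = 3.32e-07) in V81A and fell by 3.12 (adjusted p = 1.63e-09) in Y98A. The cell cycle genes called in both mutants, which share their controls, were CLN1 (higher in both), CLN2, CDC20, SWI5, CTS1 and CLB4 (lower in both) and EGT2 (higher in V81A, lower in Y98A), and the part of the marker shift in these results was not tested.

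Other cell cycle genes were taken from lists drawn from general knowledge, but chosen with earlier results of these data known. The following counts are therefore not independent support for those of the 39 genes. They are to be read against the shares of all probes called lower and higher, which were 17.1% and 16.8% in V81A, 22.4% and 23.9% in G44A, 12% and 16.6% in N108A, 13.6% and 15.9% in K44A, 16.7% and 13.9% in Y98A, 11.2% and 7.7% in Q5A, and 4.95% and 9.8% in R40A. Of 33 measured late G1 genes outside the 39, 18 were lower and 3 higher in V81A, with a median of -0.18, against 10 lower and 4 higher in G44A, 7 and 3 in N108A, 7 and 2 in K44A, 7 and 2 in Y98A, and 6 and 2 in Q5A. V81A had the highest count of lower genes, while its share of all probes called lower was below that of G44A. HCM1, a forkhead factor of S phase, was lower in 6 mutants, by 0.32 in K44A (adjusted p = 3.49e-04), 0.30 in V81A (adjusted p = 3.96e-04), 0.30 in G44A (adjusted p = 3.59e-04), 0.24 in Q5A (adjusted p = 0.00577), 0.19 in Y98A (adjusted p = 0.0143) and 0.17 in N108A (adjusted p = 0.0271). CRH1, a cell-wall enzyme gene, changed in both directions, from -0.26 in Q5A (adjusted p = 0.019) to 0.50 in Y98A (adjusted p = 9.41e-05).

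The genes of histones H2A and H2B, transcribed in S phase, were lower in all 3 H4 mutants. Of 5 genes, these 4 and the histone H1 gene HHO1, 4 were lower and 0 higher in each of K44A, V81A and Y98A, with medians of -0.74, -0.58 and -0.24, and 4 were lower in Q5A, with a median of -0.19. HHO1 was not called in the H4 mutants (adjusted p 0.0687 in K44A, 0.357 in V81A and 0.0771 in Y98A). HTB1 fell by 0.82 (adjusted p = 1.2e-06) in K44A and by 0.58 (adjusted p = 9.68e-06) in V81A, and HTB2 by 0.74 (adjusted p = 8.34e-06) and 0.53 (adjusted p = 7.65e-05). Both encode histone H2B in near-identical copies, so the split of signal between their probes is uncertain. The H3 and H4 genes, also of S phase, moved the other way in V81A. There HHT1 was higher by 0.54 (adjusted p = 0.00256), HHF1 by 0.67 (adjusted p = 1.63e-04), HHT2 by 0.87 (adjusted p = 1.85e-04) and HHF2 by 0.88 (adjusted p = 7.2e-06). None of the 4 was called in K44A (adjusted p 0.0904 to 0.593) or in Y98A (adjusted p 0.295 to 0.762). In Q5A all 4 were lower (HHT1 -0.37, HHF1 -0.348, HHT2 -0.428 and HHF2 -0.37, adjusted p 0.0195 to 0.0449). HHT2 was lower in R53A (-1.39, adjusted p = 2.6e-04), and HHF2 was higher in N108A (0.555, adjusted p = 0.00114). The H3 and H4 genes too are near-identical pairs, and the substitutions were made in HHT2 and HHF2, so these values are uncertain.

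Of 16 measured Clb2-cluster genes outside the 39, 5 were lower and 1 higher in V81A, 4 and 0 in K44A, 3 and 0 in N108A, 3 and 5 in G44A, 2 and 3 in Y98A, and 2 and 2 in Q5A. HOF1, which acts in cytokinesis, fell by 0.31 (adjusted p = 8.65e-04) in V81A, 0.27 (adjusted p = 0.00346) in N108A, 0.21 (adjusted p = 0.0141) in K44A and 0.20 (adjusted p = 0.0285) in Q5A and rose by 0.26 (adjusted p = 0.0042) in Y98A. SFG1, a regulator of superficial growth, fell by 0.58 (adjusted p = 2.44e-05) in G44A, 0.41 (adjusted p = 8.33e-04) in K44A and 0.24 (adjusted p = 0.0239) in N108A. It rose by 0.26 (adjusted p = 0.0131) in V81A and 0.30 (adjusted p = 0.00731) in Y98A.

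Of 9 further origin licensing genes 4 were lower and 2 higher in G44A, 3 and 2 in K44A, 3 and 1 in Y98A, 2 and 1 in Q5A, 1 and 1 in R40A, 1 and 0 in N108A, and 0 and 2 in V81A. ORC3, a subunit of the origin recognition complex, was lower in 6 mutants, by 0.19 in G44A (adjusted p = 0.0157) to 0.35 in Y98A (adjusted p = 4.67e-04). ORC5, another subunit whose gene lies on chromosome XIV, rose by 0.75 (adjusted p = 3.61e-08) in V81A and 0.58 (adjusted p = 1.45e-06) in K44A and fell by 0.55 (adjusted p = 5.84e-06) in Q5A. Of 20 cell cycle regulators outside the phase groups, 7 were lower and 2 higher in V81A, 4 and 2 in G44A, 3 and 2 in K44A, 1 and 1 in Y98A, 1 and 0 in N108A, and 0 in Q5A and R40A. The list includes FAR1, which was also counted above among the genes repressed in a/alpha cells. FAR1 was the 1 lower gene in Y98A and 1 of the 7 in V81A. Among the 20 regulators FKH1, a forkhead factor, fell by 0.31 (adjusted p = 0.00137) in N108A. YHP1, a repressor that acts with Mcm1, fell by 0.29 (adjusted p = 0.00372) in V81A.

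Signs of stress and growth were read from a pair of further lists, since both are known to vary with growth rate. Of 20 stress-induced genes, 20 were higher in G44A (median 1.28), 16 in N108A (median 0.57), 15 in R40A (median 0.66) and 8 in Y98A (median 0.42), while 9 were lower and 0 higher in V81A (median -0.60), 5 were lower and 0 higher in Q5A (median -0.30), and 5 were higher and 1 lower in K44A (median -0.02). Of all probes 23.9% were higher in G44A, 16.6% in N108A, 9.8% in R40A and 13.9% in Y98A, and 17.1% were lower in V81A. The heat-shock genes SSA4 and HSP12 rose by 1.55 (adjusted p = 1.33e-06) and 1.95 (adjusted p = 1.21e-04) in G44A, and their fold changes were -0.78 (adjusted p = 5.51e-04) and -1.36 (adjusted p = 0.00237) in V81A. Of 20 ribosome biogenesis genes 14 were lower in G44A (median -0.30), 9 in K44A (median -0.20), 7 in N108A (median -0.17) and 0 in V81A (median 0.05). NOP58 fell by 0.54 (adjusted p = 3.87e-05) in G44A, and NOP2, on chromosome XIV, rose by 0.86 (adjusted p = 9.73e-08) in V81A. R40A had 15 stress genes called and 0 of the 39 cell cycle genes, and the part of stress or growth rate in the cell cycle values of the other mutants was not tested.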

How the data were processed

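Per the file headers and the deposited protocol text, the authors' scanner files hold spot and local background intensity in 2 channels, extracted with ImaGene and not normalised. The authors' deposited value table holds log2 ratios after print-tip loess with a span of 0.4 and a dye correction, and per the submitters' processing notes limma was used. It served as an alternative, with 3 arrays whose sign was opposite to the scanner ratios turned first. Here intensities were background-corrected (normexp, offset 50) and normalised by global loess with control spots at weight 0, turned to strain over reference, and averaged over the 2 spots of each probe. The precision is limited by the 2 arrays per strain. The p-values rest on a spread between cultures pooled over all 11 strains, not on the cultures compared alone. A gene therefore has the same SE in every comparison of the main fit.

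Limma 3.58.1 in R 4.3.3 fitted 11 strain means and a dye term, which is also the culture letter, with 10 residual degrees of freedom and Benjamini-Hochberg adjustment over 6388 probes. Culture differences with the same letter correlated by over 0.1 in 52 of 55 pairs of strains (median 0.387, lowest -0.125), so the letter was kept as a block in all fits but one. The fit was tested on simulated data for R53A against hht2-wt alone, with 100 genes shifted by 0.5 or by 1. Of the shifted genes 92% and 99% were called, and 8 unshifted genes were called at either size. Smaller shifts, the size of many differences called here, were not tried. Gene names and chromosomes come from the RefSeq R64 table, since the files name no build.

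The 39 genes, their phases and the wider lists were chosen with earlier results of these data known. Values per culture were given for the 4 genes of each phase called in most mutants, for genes called in 1 mutant with a change of at least 0.5, and for the 3 largest called changes per mutant and direction, and in each wider list for the 2 genes called in most mutants; others were added after their values were seen. Sequences were not used here, and 1 of the wider lists is not reported here.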

Additional observations from a re-analysis of the deposited data

How the results depend on the processing

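All 39 genes were above background on all 22 arrays. Of 70 called differences, 29 kept their call without each of the 4 arrays compared in turn, and 23 under every alternative run: DBF2 and MYO1 in G44A, CDC45 and CLB2 in N108A, CLB1 and CLB2 in K44A, 13 genes in V81A, and CLN1, CLN2, CDC20 and CTS1 in Y98A. The 13 in V81A were CLN1, CLN2, CLB6, POL30, MCD1, CLB1, CLB4, SWI5, CDC20, DBF2, ALK1, CDC6 and ASH1. The direction turned in 3 cases, all for chromosome XIV genes once each chromosome was centred on its median: PCL1 (-0.0883) and EGT2 (-0.123) in V81A and POL1 (-0.064) in K44A.

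Without the replicate block the called genes fell from 4 to 0 in Q5A, from 10 to 3 in N108A and from 12 to 5 in K44A, and with only the 4 arrays compared from 4 to 0 in Q5A. Centred by chromosome K44A had 3. In R40A 1 gene was called with print-tip loess, with the authors' value table, with both controls and with the control of the other histone. Leaving out 1 array gave 0 to 1 genes in Q5A, 5 to 11 in G44A, 3 to 4 in N108A and 5 to 8 in K44A. R53A and L109A had 0 under every alternative. The share of all probes called under each alternative is not given. The fits without the V81A and Y98A arrays and without chromosomes I, VIII and XIV were chosen after seeing the data.

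Phase medians moved by more than the spread between cultures in these cases. With print-tip loess the M/G1 median was -0.05 in Q5A, 0.05 in G44A and -0.02 in N108A, and from the authors' values it was 0.01 in Q5A and -0.01 in N108A. Without chromosomes I, VIII and XIV it was -0.05 in Q5A (M/G1), -0.04 in G44A (Clb2 cluster), and -0.15 in K44A and -0.33 in V81A (G1/S). With the control of the other histone it was -0.06 (G1/S) and -0.01 (Clb2 cluster) in G44A, 0.07 in L109A (Clb2 cluster) and -0.21 in V81A (G1/S). Leaving out 1 array gave Clb2-cluster medians of -0.02 to 0.07 in G44A, -0.10 to -0.03 in K44A, -0.14 to -0.07 in N108A, -0.02 to 0.06 in R40A and -0.31 to -0.22 in V81A. It gave G1/S medians of -0.05 to -0.02 in G44A, -0.14 to -0.06 in K44A, -0.09 to -0.01 in R40A and -0.22 to -0.13 in V81A, and M/G1 medians of -0.10 to -0.07 in Q5A and -0.20 to -0.10 in V81A. The causes were not tested.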
